A study of Mus musculus with 8 samples.

Results

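The genes described here are 10 enzymes of phospholipid synthesis and remodelling in mouse liver: Lpcat1, Lpcat2, Lpcat3, Lpcat4, Mboat1, Mboat2, Chka, Pcyt1a, Pemt and Etnppl. They were taken by gene symbol from an RNA-Seq table of 25010 genes, and all 10 were found in it. The study compared wild-type (WT) mice with LXRDKO mice, which lack both liver X receptors, LXRα (Nr1h3) and LXRβ (Nr1h2), nuclear receptors activated by oxysterols. The left lobe of the liver was taken from 2 WT and from 2 LXRDKO animals, and each gave 1 RNA library. All mice were C57BL/6, 8 weeks old and fasted for 4 to 6 h. The mice ate standard chow, and the labels do not give their sex. Both receptors were deleted in the whole body, and whole liver holds hepatocytes together with macrophages, endothelial cells, stellate cells and bile duct cells. Fewer cells of a type and less RNA per cell therefore cannot be told apart.

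Phosphatidylcholine, the main phospholipid of hepatocyte membranes, bile and lipoproteins, is made in liver by a pair of routes. In the CDP-choline route a choline kinase (CHKA or CHKB) phosphorylates choline, PCYT1A makes CDP-choline, and CHPT1 or CEPT1 joins it to diacylglycerol. In the other route PEMT methylates phosphatidylethanolamine, which itself is made from ethanolamine through PCYT2. The finished phospholipids are then remodelled: phospholipases remove an acyl chain, and lysophospholipid acyltransferases (LPLATs) put another in its place. LPCAT3, MBOAT1 and MBOAT2 belong to the MBOAT family of LPLATs, and LPCAT1, LPCAT2 and LPCAT4 to the AGPAT family. LPCAT3 prefers polyunsaturated acyl chains, and Lpcat3 is a known target gene of the LXRs. ETNPPL breaks down phosphoethanolamine, the phosphorylated precursor of the ethanolamine head group.

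Reads counted on genes ranged from 55772659 to 72842744 per liver. The values are read counts divided by 1 size factor per library, called normalized counts below. Nr1h3 measured 5785 and 5322 normalized counts in WT liver and 1712 and 1826 in LXRDKO liver. Nr1h2 measured 2987 and 3110 against 925 and 1003, so both deleted genes were lower in both LXRDKO livers but still gave reads. Of 8 hepatocyte markers, including Alb, 1 was lower and 3 were higher in both LXRDKO livers. Their summed level, most of it from Alb, overlapped between genotypes. Marker transcripts of other cell types were counted in the same way, where 21.7% of all genes tested were higher and 23.0% lower in both LXRDKO livers. Of 8 Kupffer cell markers 7 were lower in both LXRDKO livers, with sums of 11122 and 12009 normalized counts against 4767 and 2560, and 1 of them was at 0 in an LXRDKO liver. Of 6 sinusoidal endothelial markers 4 were lower, with sums of 11178 and 9934 against 8378 and 6256. Of 6 stellate cell markers 4 were higher, with sums of 10698 and 11945 against 15572 and 17908. All 5 cholangiocyte markers were higher, with sums of 2077 and 3582 against 4553 and 5409. Of 8 markers of other leukocytes 3 were lower and 2 higher. limma called 4 of the Kupffer cell and 1 of the endothelial markers down, and DESeq2 6 and 1. limma called none of the hepatocyte, stellate cell, cholangiocyte or leukocyte markers, of which DESeq2 called 2, 2, 1 and 0, all up. Over all genes limma called 0.321%, and DESeq2 1.56% up and 2.03% down. The part of these cell types in the results below was not tested.

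Lpcat3 transcript was lower, and Chka and Etnppl transcripts were higher, in each LXRDKO liver compared with either WT liver, each by about 0.7 on the log2 scale. The size of these differences hardly depended on the test, but the adjusted P values and the calls did. limma on log2(normalized count + 1), fitted to the 15578 genes whose mean reached 10 normalized counts, called none of the 9 members tested at a Benjamini-Hochberg adjusted P value of 0.05. It called 0.321% of all genes tested. At an unadjusted P value of 0.05 it passed 4 of the 9, with 2 up and 2 down, where 13.3% of all genes passed (5.77% up and 7.5% down). The quasi-likelihood test of edgeR called none of the 9, and 0.311% of all genes. DESeq2, run on the reads recovered from the table, called 3 of the 9, which were Chka and Etnppl up and Lpcat3 down, and 3.59% of all genes (1.56% up and 2.03% down). Leaving out 1 liver in turn leaves a genotype with 1 liver, and DESeq2 then called fewer genes over all. None of the 3 member calls held whichever liver was left out. By limma the log2 fold change then ranged from −0.84 to −0.53 for Lpcat3. It ranged from 0.50 to 0.84 for Chka and from 0.49 to 0.89 for Etnppl. In 7 of the 9 the genotypes did not overlap, with 3 up and 4 down, and 44.7% of all genes tested showed such a separation (21.7% up and 23.0% down). The median log2 fold change of the 9 was −0.11, against −0.0046 over all genes tested.

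**Figure D1:**
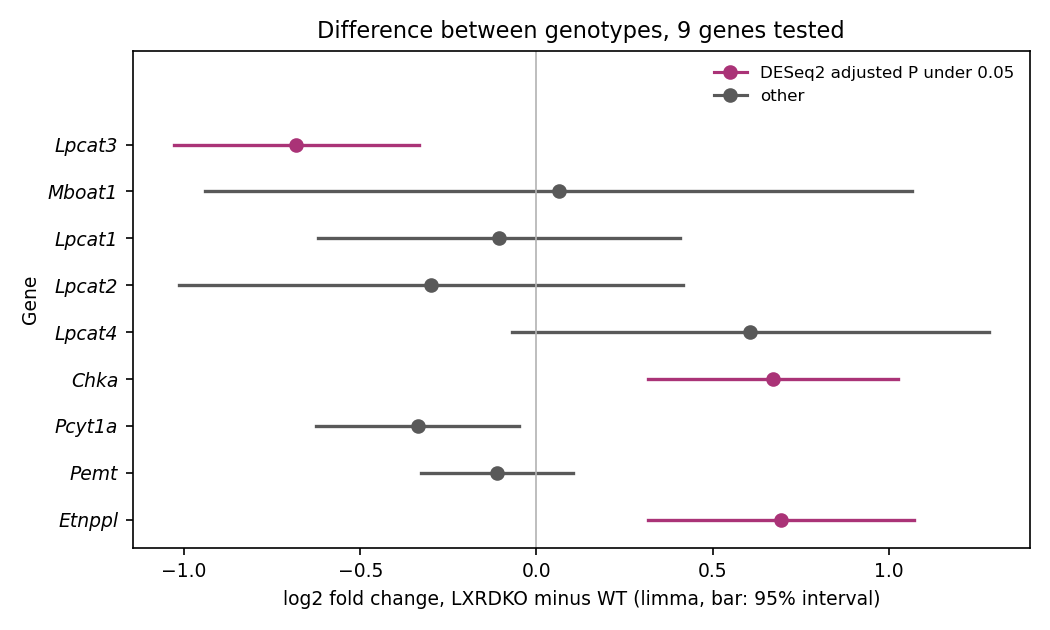
Fitted log2 fold change (horizontal axis, LXRDKO minus WT, limma) of the 9 members tested, with bars for the 95% interval, n = 2 livers per genotype. The intervals of Lpcat3 and Pcyt1a lie below 0 and those of Chka and Etnppl above it, and the coloured genes are the 3 called by DESeq2.

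Levels differed far more between the genes than between the genotypes. To compare genes, normalized counts were divided by the length of all annotated exons of the gene in kb. In WT liver the level per kb was highest for Pemt (6322 ± 74.4, SD, n = 2), followed by Lpcat3 (3290 ± 498), Etnppl (1409 ± 91.4) and Pcyt1a (1089 ± 31.2). Chka (81.8 ± 2.72), Lpcat2 (34.8 ± 7.81), Lpcat1 (26.9 ± 0.97), Lpcat4 (15.4 ± 1.20) and Mboat1 (7.06 ± 2.49) lay much lower, and Mboat2 (0.35 ± 0.50) was close to the limit of detection. No neighbours in this order overlapped between WT livers. In LXRDKO liver Etnppl (2298 ± 445) came before Lpcat3 (2047 ± 221), although these ranges overlapped. Lpcat2 (28.3 ± 6.40), Lpcat1 (25.0 ± 0.93) and Lpcat4 (23.6 ± 1.52) also overlapped there. Pemt remained first (5852 ± 82.6).

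**Figure D2:**
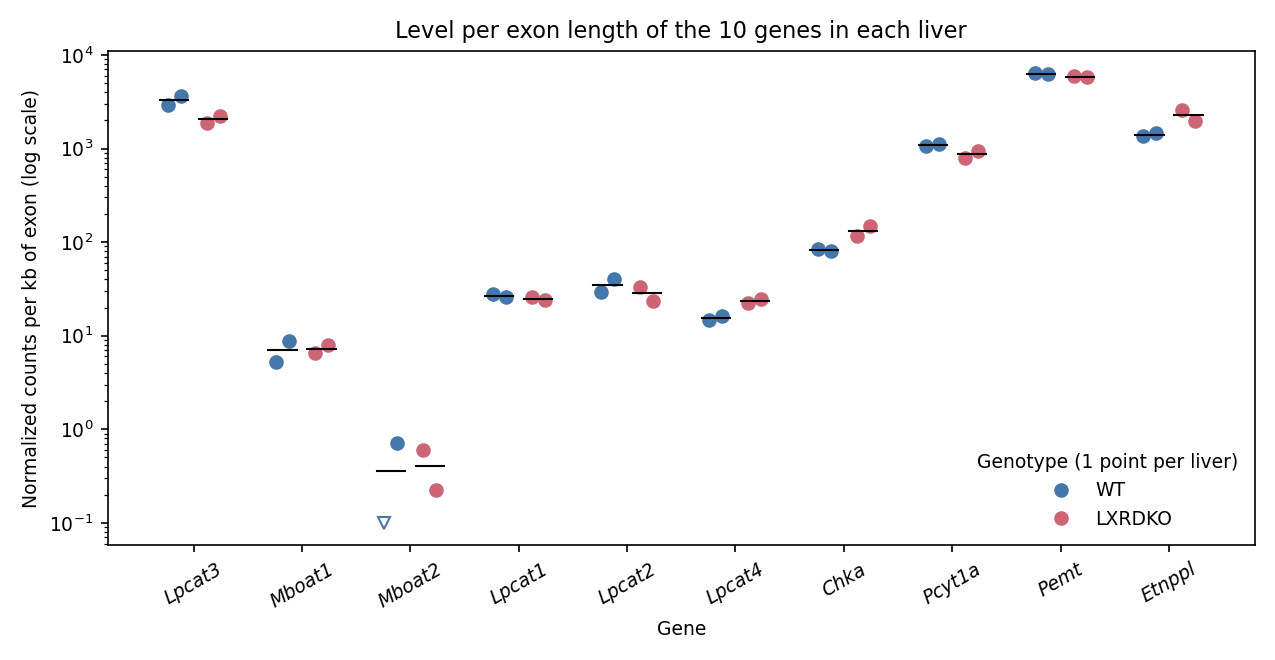
Normalized counts per kb of exon on a log scale (vertical axis) of the 10 genes, 1 point per liver, with a black line at the mean of each genotype; the open triangle marks the WT liver with 0 reads of Mboat2 and is drawn at the foot of the scale. Pemt, Lpcat3, Etnppl and Pcyt1a lie far above the other genes in every liver, and the shift between genotypes is small beside the distance between most genes.

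The sequences just upstream of the 3 genes called by DESeq2 are shown for the letters that they share and do not share. They are RefSeq sequences of GRCm38.p6 on the plus strand, 5′ to 3′, in which capitals mark the letters CCAAT or GGGCGG on either strand. The Lpcat3 stretch is chr6:124662854-124663026, and it was ended before the first annotated exon of the gene. The Chka stretch is chr19:3851523-3851772 and the Etnppl stretch chr3:130617198-130617447.
Lpcat3: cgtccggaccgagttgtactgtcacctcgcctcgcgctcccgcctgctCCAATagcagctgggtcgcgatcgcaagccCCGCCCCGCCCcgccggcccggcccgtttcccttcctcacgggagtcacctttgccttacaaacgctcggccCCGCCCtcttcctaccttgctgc
Chka: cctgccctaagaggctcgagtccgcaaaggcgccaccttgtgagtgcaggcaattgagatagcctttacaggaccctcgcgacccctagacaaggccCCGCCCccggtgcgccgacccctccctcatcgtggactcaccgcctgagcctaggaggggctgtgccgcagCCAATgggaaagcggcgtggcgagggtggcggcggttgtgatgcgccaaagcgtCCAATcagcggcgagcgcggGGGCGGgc
Etnppl: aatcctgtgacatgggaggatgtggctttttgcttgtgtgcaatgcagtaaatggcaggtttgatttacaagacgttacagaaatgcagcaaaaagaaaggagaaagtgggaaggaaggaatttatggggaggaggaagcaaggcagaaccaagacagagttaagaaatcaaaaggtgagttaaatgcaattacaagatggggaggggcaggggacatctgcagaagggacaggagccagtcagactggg

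The Lpcat3 stretch of 173 bases held 1 CCAAT and 3 GGGCGG matches, a pair of which overlapped. The Chka stretch of 250 bases held 2 of each. These counts are not comparable, since bases nearer the Lpcat3 start were cut off. Counted from the start, those bases held further CCAAT (from −50, −8 and 27) and GGGCGG matches (from −69, −22 and 8). The Etnppl stretch of 250 bases held neither, and its GC content was 46.0%, against 68.8% for Lpcat3 and 68.0% for Chka. GGGCGG matches from −1 in Etnppl and from −4 in Chka ran past the end of the stretch. Over whole RefSeq promoter windows, each 250 bases before to 50 after a start, the GC content was 71.0% for Lpcat3, 68.7% for Chka and 49.3% and 56.7% for the 2 windows of Etnppl, and the median of all 32851 windows was 52.7%. The 10 members have 14 windows. GGGCGG was found on either strand in 11 of the 14, from 9 members, all but Pemt, and in 35.7% of all windows. The matching windows of Etnppl overlap and hold the same match, and those of Pcyt1a likewise hold the same matches. CCAAT was found in 6 of the 14, from 6 members (Chka, Lpcat2, Lpcat3, Mboat1, Mboat2 and Pemt) and in 37.4% of all windows. TATAAA was found in 1 window, of Lpcat2, and in 13.6% of all windows. CACGTG was found in no member window and in 7.15% of all windows.

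The letters AGGTCA, which nuclear receptors bind as repeats, occurred in 2 of the 14, from Etnppl and Pcyt1a, in both after the start, and in 16.3% of all windows. A direct repeat of AGGTCA with 4 bases between the copies, the spacing that LXR with its partner RXR prefers, was in no member window and in 0.0152% of all windows. The repeat with 1 base between the copies was in no member window and in 0.0396%. Exact repeats are this rare in all windows, so finding none in 14 cannot show whether LXR binds there. The authors state that many important LXR sites differ from the perfect repeat. The sterol element letters TCACNCCAC, of the kind bound by SREBP factors, occurred in 2 of the 14, overlapping windows of Pcyt1a that hold the same match, and in 1.24% of all windows. The Pcyt1a match began 116 bases before the first RefSeq start, and it is shown because it was the least common motif found in a member. It lies in chr16:32430795-32430823, plus strand, GRCm38.p6, with the match in capitals.
Pcyt1a: ttcggctcagTCACCCCACgcgcccggcc

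Among the LPLATs, Lpcat3 (ENSMUSG00000004270, chr6:124663027-124704418, mm10) gave 9602 and 11903 normalized counts in WT liver and 6178 and 7198 in LXRDKO liver. The higher LXRDKO liver held 0.75 of the count of the lower WT liver. The log2 fold change was −0.68 ± 0.14 (SE, 95% interval −1.03 to −0.33), the adjusted P value 0.151 by limma, 0.164 by edgeR and 0.00311 by DESeq2. Exons of Emg1, a ribosome biogenesis gene on the opposite strand, share 10.2% of the exon bases of Lpcat3. Emg1 itself gave 1917 and 2110 against 2110 and 1826, without separation of the genotypes.

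The other LPLATs among the 10 members were far less abundant. This does not hold for LPLATs outside the members. The most abundant of those, Agpat2, gave 4515 ± 450 per kb in WT liver, above Lpcat3 (3290 ± 498). Lpcat4 (chr2:112239468-112247111), which acylates lysophospholipids with unsaturated chains, gave 41.1 and 45.8 normalized counts in WT liver and 63.6 and 69.7 in LXRDKO liver. These did not overlap, with a log2 fold change of 0.61 ± 0.27 and an adjusted P value of 0.416 by limma. The 95% interval, from −0.07 to 1.28, included 0. Lpcat1 (chr13:73467197-73516422), best known for the saturated phosphatidylcholine of lung surfactant, gave 128 and 121 against 119 and 113, a log2 fold change of −0.11 ± 0.21 with an adjusted P value of 0.885 by limma.

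Lpcat2 (chr8:92855339-92919279), which in inflammatory cells also makes platelet-activating factor, gave 99.2 and 137 in WT liver and 111 and 80.4 in LXRDKO liver. The genotypes overlapped, and the log2 fold change was −0.30 ± 0.29 (95% interval −1.01 to 0.42). It was −0.07 without WT replicate 2 and likewise without LXRDKO replicate 2, and −0.53 without either of the other livers in turn. Mboat1 (chr13:30136489-30246717), an acyltransferase of lysophosphatidylserine and lysophosphatidylethanolamine, gave 19.4 and 32.3 against 23.7 and 28.9, also with overlap. Its log2 fold change of 0.06 ± 0.40 (95% interval −0.94 to 1.07) turned negative without WT replicate 1 (−0.29) and without LXRDKO replicate 2 (−0.07). Mboat2 (chr12:24830879-24964397), a close relative, was seen with 0 and 8 reads in WT liver and 6 and 2 in LXRDKO liver. A count of 0 allows up to 3 reads, so no difference in Mboat2 was detectable at this depth, and it was below the mean needed for testing.

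Lpcat3 made up nearly all LPLAT transcript of these 6 genes in every liver. Its share of their summed level per kb was 97.5% in each WT liver and 95.6% and 96.5% in LXRDKO liver. The share of Lpcat4 was 0.48% and 0.43% in WT liver and 1.14% and 1.08% in LXRDKO liver. That of Lpcat1 was 0.91% and 0.70% against 1.29% and 1.06%, although Lpcat1 itself was slightly lower in both LXRDKO livers. The share of Lpcat2 overlapped between the genotypes (0.97% and 1.08% against 1.66% and 1.04%). A two-sided exact permutation test over 2 against 2 livers cannot give a P value below 0.333, and the 1.49 point difference in the Lpcat3 share reached that value.

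In the CDP-choline route the 2 members lay on opposite sides. Chka (ENSMUSG00000024843, chr19:3851773-3894369) gave 1007 and 961 normalized counts in WT liver and 1389 and 1767 in LXRDKO liver. The lower LXRDKO liver was 1.38 times the higher WT liver. Its log2 fold change was 0.67 ± 0.14 (95% interval 0.32 to 1.02), with an adjusted P value of 0.155 by limma, 0.149 by edgeR and 0.0102 by DESeq2.

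Pcyt1a (ENSMUSG00000005615, chr16:32430921-32475070), whose product sets the pace of the CDP-choline route, gave 7911 and 8238 normalized counts in WT liver and 5827 and 7009 in LXRDKO liver. All LXRDKO values lay below all WT values. The log2 fold change was −0.34 ± 0.12 (95% interval −0.62 to −0.05), and its adjusted P value was 0.316 by limma and 0.328 by DESeq2. Without LXRDKO replicate 1 the log2 fold change was −0.20, and without WT replicate 2 it was −0.31. With all livers kept, the unadjusted P value by limma was 0.029. It was 0.056 with library-total scaling and 0.083 without the empirical Bayes trend, and stayed under 0.05 in the other fits of all livers. Exons of Slc51a on the opposite strand share 7.65% of its exon bases, but Slc51a gave no more than 20.4 normalized counts in any liver.

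Chkb, the other choline kinase gene, gave 786 and 915 normalized counts in WT liver and 627 and 759 in LXRDKO liver, a log2 fold change of −0.30 ± 0.15 (adjusted P value 0.477 by limma). The share of Chka in the summed level per kb of both kinases was 24.6% and 21.1% in WT liver and 36.0% and 37.2% in LXRDKO liver. Not divided by length, the share was 56.2% and 51.2% against 68.9% and 69.9%, so which kinase had more transcript depended on the scale, while the Chka share was higher in both LXRDKO livers on either. The difference of 13.8 percentage points per kb does not depend on the size factors, and its exact permutation P value was 0.333, the smallest possible. Exons of Gm44502, a gene on the same strand, cover 50.7% of the exon bases of Chkb, so the level of Chkb is uncertain.

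Pemt (ENSMUSG00000000301, chr11:59970614-60046489) gave 13413 and 13191 normalized counts in WT liver and 12436 and 12190 in LXRDKO liver. The genotypes did not overlap, yet the difference was small, with a log2 fold change of −0.11 ± 0.09 and an adjusted P value of 0.657 by limma. Its 95% interval ran from −0.33 to 0.10. The ratio of Pcyt1a to Pemt per kb, which sets the enzymes of the competing routes side by side, was 0.167 and 0.177 in WT liver and 0.133 and 0.163 in LXRDKO liver (exact permutation P value 0.333).

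**Figure D3:**
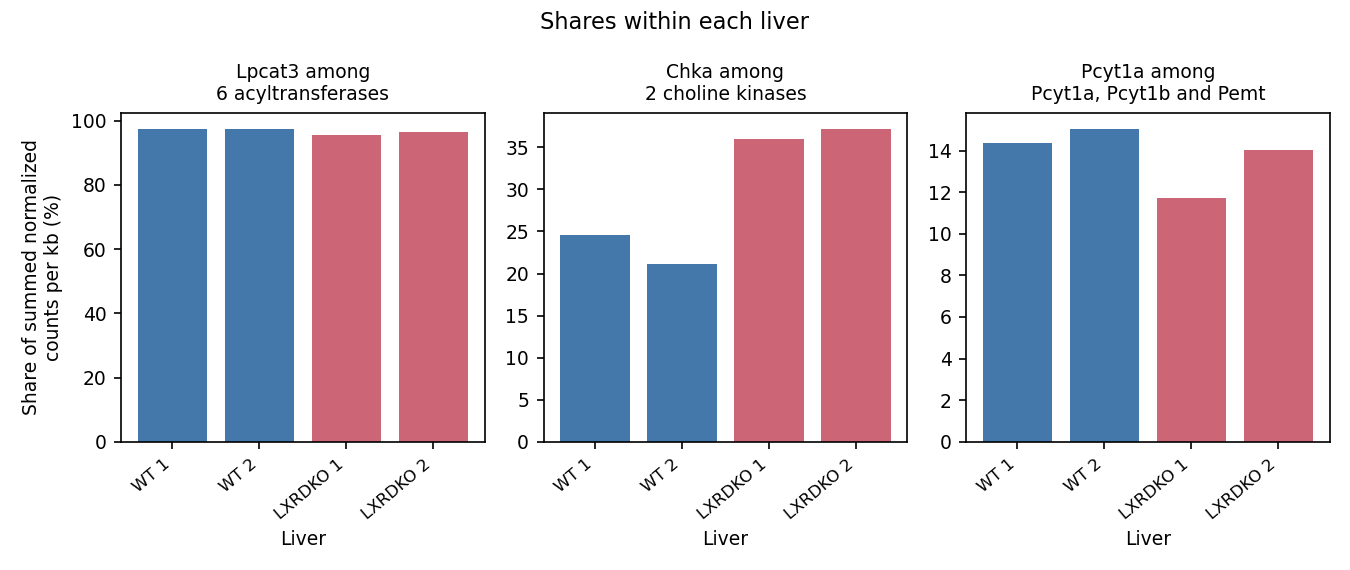
Share of the summed normalized counts per kb (vertical axis, percent, scale starting at 0 and differing between panels) of Lpcat3 among the 6 LPLAT members, of Chka among both choline kinases and of Pcyt1a among Pcyt1a, Pcyt1b and Pemt, 1 bar per liver. The Chka share was 24.6% and 21.1% in WT and 36.0% and 37.2% in LXRDKO livers, while Lpcat3 stayed above 95% in all 4 livers.

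Etnppl (ENSMUSG00000019232, chr3:130617448-130637521) gave 11111 and 12178 normalized counts in WT liver and 21579 and 16385 in LXRDKO liver. Both LXRDKO livers were above both WT livers, the lower by 1.35 times, and they also differed more from each other than the WT livers did. The log2 fold change was 0.69 ± 0.15 (95% interval 0.31 to 1.07), with an adjusted P value of 0.161 by limma, 0.172 by edgeR and 0.00317 by DESeq2. The ratio of Etnppl to Pcyt2 per kb, which uses the same phosphoethanolamine for synthesis, was 0.171 and 0.159 in WT liver and 0.401 and 0.290 in LXRDKO liver (exact permutation P value 0.333).

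Around the members, 60 further genes of phospholipid metabolism were examined by role. All 60 passed the filter on low values. None was called by limma, and 13 had an unadjusted P value under 0.05 (4 up and 9 down), where 5.77% of all genes were up and 7.5% down at that value. DESeq2 called 4, with 3 up and 1 down, and 1.56% of all genes up and 2.03% down. Their median log2 fold change was 0.03, with 33 positive and 27 negative values. Of the 60, 16 were higher and 18 lower without overlap between the genotypes. Over all genes tested these shares were 21.7% and 23.0%.

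The 4 genes called by DESeq2 were Gpcpd1, Gde1, Etnk2 and Slc44a1. Gpcpd1, which splits glycerophosphocholine and so returns choline from degraded phosphatidylcholine, gave 22103 and 17426 normalized counts in WT liver and 36741 and 51918 in LXRDKO liver. Its log2 fold change was 1.15 ± 0.20, with an adjusted P value of 0.125 by limma and 2.79e-06 by DESeq2, and it passed DESeq2 with any liver left out. Gde1, another glycerophosphodiesterase, gave 3928 and 4412 against 5408 and 6683, a log2 fold change of 0.53 ± 0.13 with an adjusted P value of 0.205 by limma and 0.0392 by DESeq2. It lost the DESeq2 call whichever liver was left out.

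Etnk2 and Etnk1, whose kinases make phosphoethanolamine, lay on opposite sides. Etnk1 gave 6305 and 7017 normalized counts in WT liver and 4936 and 5851 in LXRDKO liver. Its log2 fold change was −0.31 ± 0.12, with an adjusted P value of 0.360 by limma. Etnk2 gave 20601 and 17781 normalized counts in WT liver and 28659 and 33338 in LXRDKO liver. The log2 fold change was 0.69 ± 0.13, with an adjusted P value of 0.131 by limma and 0.000592 by DESeq2. Without WT replicate 2 the DESeq2 value was 0.071, and without LXRDKO replicate 2 it was 0.181. Slc44a1, a choline transporter, gave 2664 and 2913 against 1594 and 1814. Its log2 fold change was −0.71 ± 0.11, with an adjusted P value of 0.0973 by limma and 0.000408 by DESeq2. That call was lost without WT replicate 2 (0.113) and without LXRDKO replicate 1 (0.197).

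**Figure D4:**
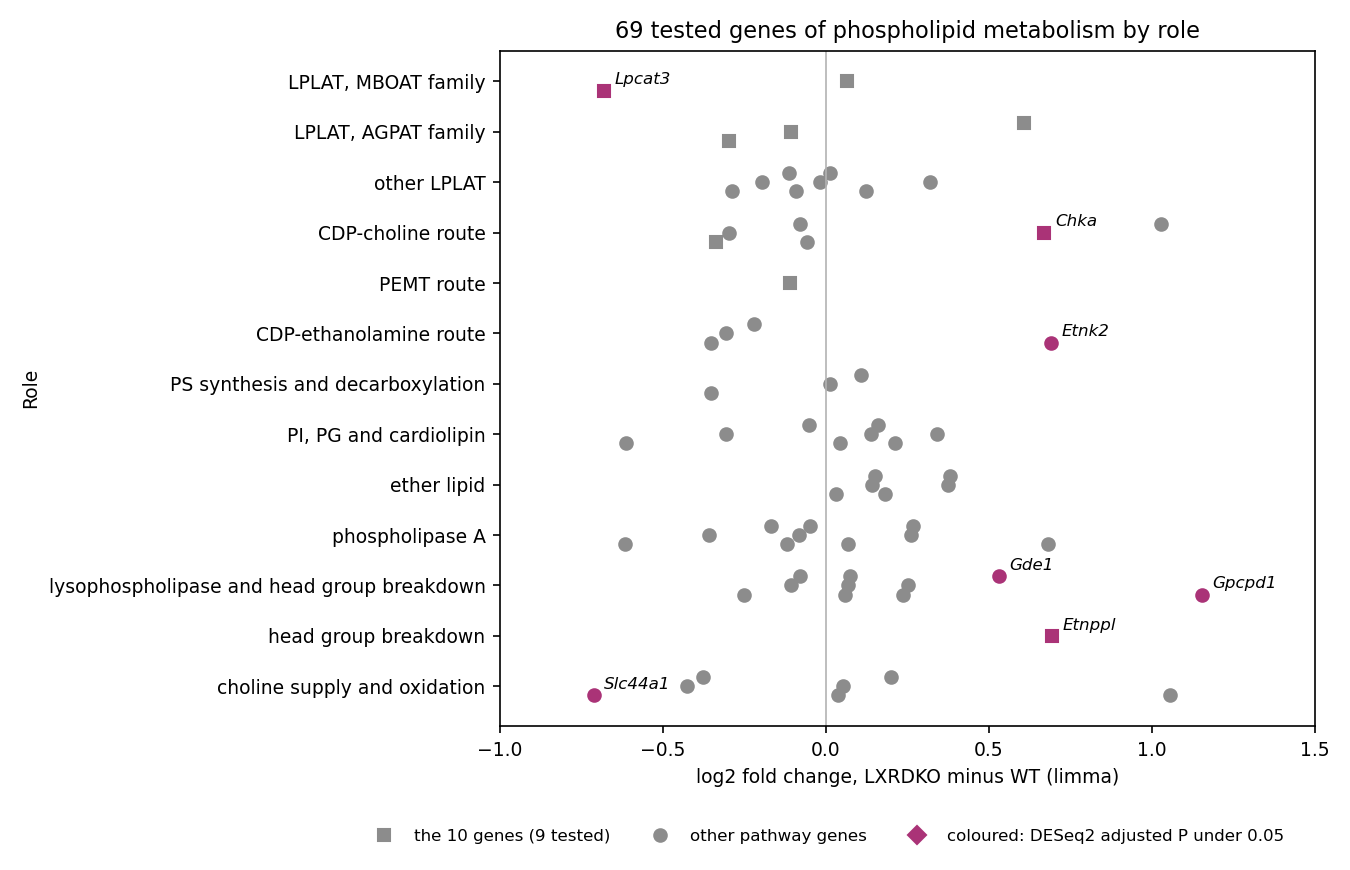
Fitted log2 fold change (horizontal axis, LXRDKO minus WT, limma) of the 9 members tested (squares) and the 60 further genes (circles), arranged by role on the vertical axis. The coloured and named genes are the 7 called by DESeq2, and the 60 further genes have a median of 0.03.

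Of the remaining roles, the most abundant gene per kb was called by neither limma nor DESeq2. Chpt1, the last step of the CDP-choline route, had a log2 fold change of −0.08 ± 0.15, and Ptdss1, a phosphatidylserine synthase, 0.01 ± 0.10. Agpat2, which makes phosphatidic acid, had 0.01 ± 0.13. Tmem86b, a lysoplasmalogenase, had 0.15 ± 0.16, and Pla1a, a phosphatidylserine-specific phospholipase, −0.12 ± 0.10. Crls1, the cardiolipin synthase, had 0.34 ± 0.14 with an adjusted P value of 0.394 by limma. Pcyt2, the control point of phosphatidylethanolamine synthesis, gave 34140 and 40171 normalized counts in WT liver and 28289 and 29707 in LXRDKO liver. The genotypes did not overlap for Pcyt2, with a log2 fold change of −0.35 ± 0.12 and an adjusted P value of 0.322 by limma.

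Lists of neighbouring lipid pathways from the same livers show the scale of these values. All 10 genes of de novo lipogenesis examined had a negative log2 fold change, with a median of −1.14. Of these, 2 were called down by limma and 6 by DESeq2. Over all genes limma called 0.321% in either direction, and DESeq2 1.56% up and 2.03% down. The 8 genes of triglyceride assembly had a median of −0.06, with 1 called down by limma and 1 up and 1 down by DESeq2. The difference between these lists and the members was not tested.

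For the 3 members called by DESeq2, the genes with the most similar pattern over the 4 livers were sought among 6316 genes averaging 1000 normalized counts or more. Likeness was the root mean square distance in log2(normalized count + 1), centred per gene, and 4 livers allow only a description. Closest to Lpcat3 were Rhpn2 (distance 0.025), Plekha8 (0.028), a lipid transfer protein gene, and Lipa (0.043), the lysosomal acid lipase. Lipa gave 12283 and 14992 normalized counts in WT liver and 8098 and 8692 in LXRDKO liver. Closest to Chka were Gm14097 (0.017), Cyp7a1 (0.045), the rate-limiting enzyme of bile acid synthesis, and Tat (0.051), tyrosine aminotransferase. Cyp7a1 gave 17587 and 16798 against 24854 and 29037. Closest to Etnppl were Lyz2 (0.077), a lysozyme, Phlda1 (0.090) and 2010111I01Rik (0.094).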

How the data were processed

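Per the labels and methods, the authors prepared stranded KAPA libraries from mRNA of liver, and read 50 bp from 1 end of each fragment (HiSeq3000). Quality was examined in FastQC, STAR 2.6.0c placed the reads on mm10, and the authors normalized their counts in DESeq2. They also tested differential expression in DESeq2 at an adjusted P value under 0.05, and reported 246 genes up and 321 down. DESeq2 on the recovered reads gave the same numbers here. The counting tool, its strand setting and the annotation release are not given in the sources used here. The deposited values are a signal, normalized counts of 25010 genes in 4 libraries, and 100% of values were whole numbers of reads within 0.01 read once multiplied by the size factor. Chromatin accessibility samples were not analysed here.

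Members, lists and tests were chosen with earlier results of these data known. limma 3.58.1 (R 4.3.3) was fitted to log2(normalized count + 1) with an empirical Bayes trend, for genes with a mean of at least 10. P values were adjusted by Benjamini-Hochberg over all genes. A fold change on this scale understates changes of low genes. The recovered reads were tested by DESeq2 1.42.0 and by the quasi-likelihood method of edgeR 4.0.16. Exon lengths came from GENCODE M21, which matched 24987 gene identifiers. Promoters of all 10 members were found by symbol in RefSeq, and a promoter match describes letters only. No label says how the mice relate within a genotype, so P values measure the spread between these livers. Floors cover counting error only.

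The genes named are the 10 members, both deleted receptors, each further pathway gene called by limma or DESeq2, the most abundant gene per kb of each role (1 of these is not reported here), and the 3 genes nearest in pattern to Lpcat3, Chka and Etnppl. Chkb is named as the partner of Chka in the shares, Etnk1 as the other ethanolamine kinase gene, and overlapping genes for their shared exons. Alternatives were other pseudocounts, filters and scalings, other moderation, a replicate block and leaving out each liver.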

Additional observations from a re-analysis of the deposited data

How the results depend on the processing

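DESeq2 on recovered reads called 3 members and 4 of the 60 further genes, where limma called 0 of each. With 1 liver left out at a time, limma called a member (Lpcat3) and any of the further genes only without WT replicate 1. DESeq2 then called fewer members, and also fewer genes over all. Leaving out livers in DESeq2 was chosen after seeing the data. The median of the members was −0.022 with no filter, which added Mboat2, and −0.13 to −0.07 with 1 liver left out. Mboat1 reversed to −0.29 without WT replicate 1 and to −0.07 without LXRDKO replicate 2, within a range up to 0.42. The difference in the Lpcat3 share was −1.94 to −1.03 points with 1 liver left out. No label pairs the mice of the genotypes by replicate number. The correlation of deviations (0.0031) cannot settle this with 2 livers per genotype. With the replicate block 0 members and 0 of the further genes were called, against 90 genes in all in place of 50. Over all genes, limma without the trend called 1 gene, and leaving out WT replicate 1 or 2 gave 262 or 157, LXRDKO replicate 1 or 2 gave 2 or 8. Other pseudocounts, filters and scalings called no member. The cause of these changes was not tested. Depth limited Mboat2 and Mboat1, which had at most 38 reads in any liver.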

Other observations

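The 6 genes of ether lipid metabolism all had a positive log2 fold change, with a median of 0.17 and a range of 0.03 to 0.38. This role was picked out with its values known. In 3 of them, all higher in LXRDKO, the genotypes did not overlap. Over all genes tested 21.7% were higher and 23.0% lower in this way. None of the 6 was called by limma or DESeq2 or had an unadjusted P value under 0.05 by limma. Bhmt, which uses betaine made from choline to remethylate homocysteine and was also chosen after its values were seen, gave 28972 and 10852 normalized counts in WT liver and 27680 and 49034 in LXRDKO liver. Its genotypes overlapped, and the WT livers differed more from each other than those of any of the 9 members tested.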
